A study of Mus musculus with 6 samples.

Results

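The matrix metalloproteases (MMPs), the ADAM and ADAMTS metalloproteases and their tissue inhibitors (TIMPs) were followed in cultured mouse dorsal root ganglion (DRG) neurons, the sensory neurons beside the spinal cord. Members were the protein-coding rows of the deposited gene table whose symbol is Mmp, Adam, Adamts or Timp followed by a number and optional letters, 79 of 45777 genes: 23 Mmp, 33 Adam, 19 Adamts and 4 Timp genes. All cultures came from adult wild-type C57BL/6 mice given as 8 weeks old and female. The control cultures received PBS (3 libraries), and the treated cultures were given oncomodulin (ONCM), a calcium-binding protein of the parvalbumin family, as recombinant protein for 12 hours at 100 ng/ml (3 libraries). The labels call the libraries biological replicates and name no separate cultures or animals, so p-values measure only the spread between these samples, part of which may be technical.

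MMPs, ADAMs and ADAMTSs are zinc-dependent proteases that share a folded catalytic domain and are made as inactive precursors. MMPs cut matrix proteins such as collagens, laminin and proteoglycans and are either secreted or held at the cell surface. ADAMs are membrane proteins that release the outer parts of other membrane proteins, a step called shedding, while several ADAMs have lost the catalytic residues and act as adhesion or receptor subunits. ADAMTSs are secreted and bind matrix through thrombospondin repeats, and many cut the large chondroitin sulphate proteoglycans that restrain axon growth. TIMPs occupy the active site of these enzymes. In peripheral nerve, this system is known for remodelling of matrix after injury, for shedding of neuregulins and cytokine receptors, and for the release of inflammatory signals.

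Library totals ran from 53770820 to 64477014 counts, so that 3 counts in a library correspond to 0.0465 to 0.0558 CPM (counts scaled to library size). This floor covers counting error only. ONCM replicate 3 stood somewhat apart, with a chi-square per degree of freedom of 7.78 and 7.21 against the other ONCM libraries, which had 3.19 between them, and PBS pairs had 2.78 to 4.42. Without it 21 members rose and 16 fell, against 21 and 17 with it. Counts come from mixed cultures: summed over 12 sensory neuron markers, levels were 22780 to 23640 CPM with PBS and 20530 to 21710 CPM with ONCM, and 10 Schwann cell markers summed to 3699 to 3768 and 3844 to 4002 CPM. Fewer cells of a type and less RNA per cell cannot be told apart in such samples. Transcripts of Ocm, the oncomodulin gene, were at 0 to 4 counts in every library, so the added protein left no check in the RNA. Against the label of female for every sample, the Y-linked Ddx3y ranged from 58.1 to 62.4 CPM over the PBS and from 15.1 to 16.9 CPM over the ONCM libraries, and Xist from 0.485 to 0.588 and from 413 to 513 CPM. Sex or source of the cells and treatment therefore cannot be told apart for any gene below.

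Most tested metalloprotease and TIMP genes changed, in both directions and mostly by modest amounts. Of the 79 members, 58 passed the filter on low counts, and of these 21 rose, 17 fell and 20 did not pass by edgeR's quasi-likelihood test with adjusted p under 0.05. Over all 20354 genes tested, 48.3% changed, 23.9% upward and 24.4% downward, against 65.5% of the tested members, 36.2% upward and 29.3% downward. A filter can keep a weakly counted gene through its higher group, so these counts describe the tested members and not all 79. The median log2 fold change was -0.04 over the tested members and 0.00 over all genes tested (-0.00212). At least 2-fold changes were few: Adam8, Mmp16, Mmp12 and Adam18 rose and Adamts15 fell by that much, 4 and 1 of 58, where 6.18% and 2.01% of all genes tested did. Of these, Adam18 was weakly counted, at 9 to 16 counts with PBS. The PBS and ONCM libraries did not overlap in CPM for 42 of the 58 tested members (72.4%), against 55.6% of all genes tested. On the log2(TPM + 1) scale (TPM scales counts by gene length as well as by library size) 19 members rose and 18 fell, while the share of calls that were rises among all genes went from 49.5% to 39.2%.

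**Figure D1:**
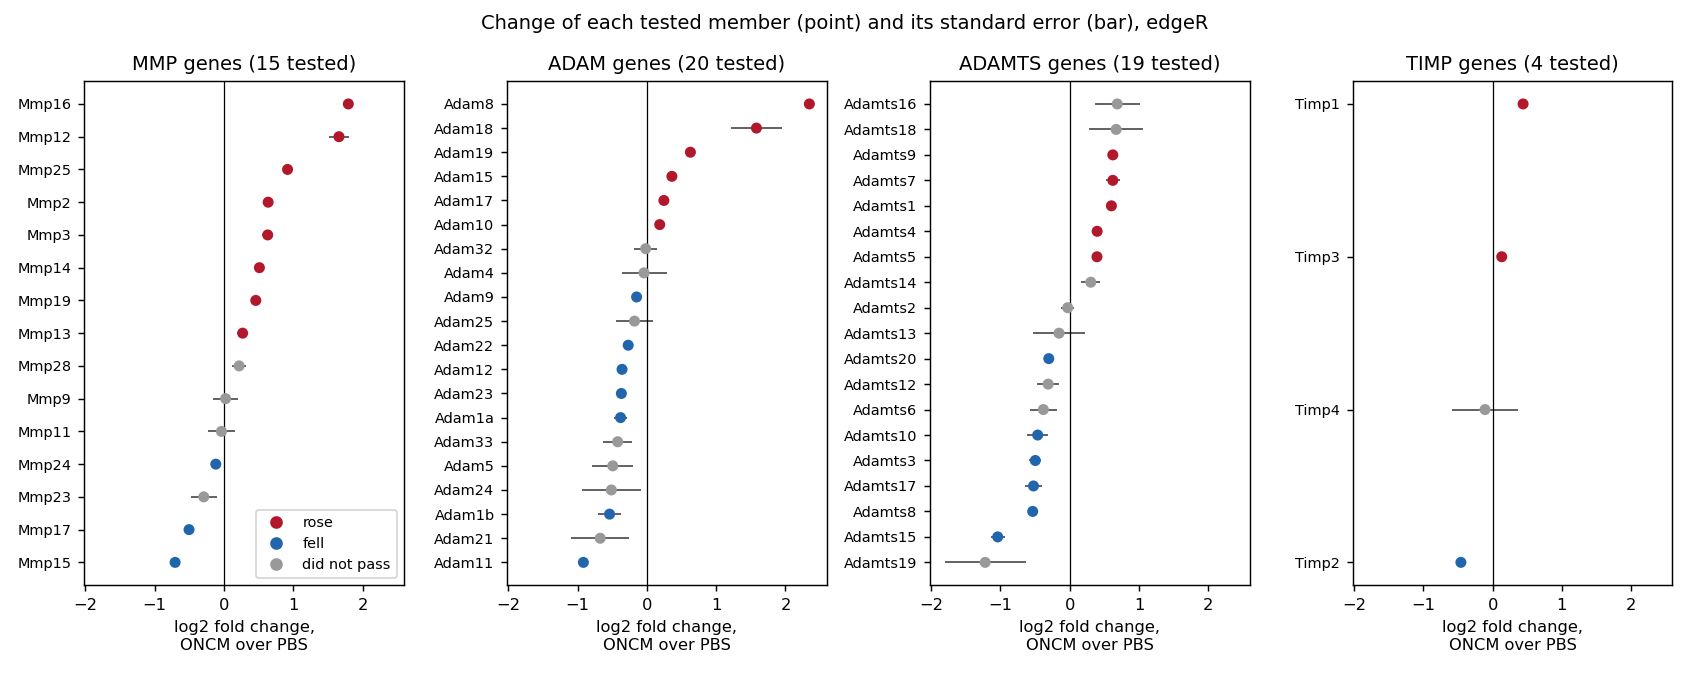
Log2 fold change of ONCM over PBS (x axis) for each of the 58 tested members, in 1 panel per family, with the standard error as a bar and colour for genes that rose, fell or did not pass. Adam8 lies farthest to the right at 2.35, and MMP genes reach from -0.71 for Mmp15 to 1.79 for Mmp16.

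Among the MMPs, 8 of the 15 that were tested rose, 3 fell and the other 4 missed the threshold, at a median log2 fold change of 0.27. Of all genes tested, 23.9% rose and 24.4% fell. The rise of Mmp13 and the fall of Mmp24 were each lost in several alternatives, as given below. The membrane-type MMPs, which stay anchored at the cell surface, split evenly: Mmp16, Mmp25 and Mmp14 rose, and Mmp15, Mmp17 and Mmp24 fell. Mmp16 (chromosome 4, 17853072 to 18117479), a transmembrane enzyme that can activate the gelatinase MMP2, had 11.4, 11.7 and 11.2 CPM with PBS, and 40.6, 42.6 and 35.8 CPM were counted with ONCM. Each ONCM library was more than 3 times as high as any PBS library. The rise was 3.47-fold, 1.79 on the log2 scale with an SE of 0.06 (edgeR adjusted p = 8.77e-14).

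Mmp25 (chromosome 17, 23628315 to 23645269), a GPI-anchored enzyme first known from leukocytes, had 51.0, 51.3 and 51.1 CPM with PBS and 98.3, 96.0 and 95.3 CPM with ONCM. The groups were far apart and each was tight, and the gene rose 1.89-fold (log2 fold change 0.92, SE 0.03, edgeR adjusted p = 1.62e-13). Mmp14 (chromosome 14, 54431598 to 54442456), the main cell-surface activator of MMP2 and a collagenase, went from 53.5, 52.3 and 52.2 CPM to 72.4, 73.9 and 79.0 CPM, a 1.42-fold rise (0.51, SE 0.04). Mmp2 itself, the gelatinase that cuts basement membrane collagen and proteoglycans (chromosome 8, 92827290 to 92853421), rose 1.55-fold, from 19.7, 19.6 and 21.2 CPM to 30.2, 30.6 and 33.2 CPM (0.64, SE 0.05, edgeR adjusted p = 1.46e-08). The activator and its substrate thus were both higher in every ONCM library than in any PBS library.

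Mmp15 (chromosome 8, 95352296 to 95374293), another transmembrane MMP, went the other way. Its PBS libraries were at 105, 101 and 98.9 CPM and its ONCM libraries at 58.9, 64.8 and 63.5 CPM, a fall to 61.3% of the PBS level (log2 fold change -0.71, SE 0.04, edgeR adjusted p = 6.34e-11). Mmp17, GPI-anchored like Mmp25, fell to 70.5%. Mmp24, a transmembrane MMP of neurons that cuts N-cadherin, was only slightly lower, at 35.7, 34.1 and 34.4 against 32.6, 32.2 and 31.3 CPM. The Mmp24 call (log2 fold change -0.12, edgeR adjusted p = 0.0328) was lost without PBS replicate 1 (-0.10, adjusted p = 0.117), ONCM replicate 2 (-0.12, 0.0648) or ONCM replicate 3 (-0.10, 0.0718), with DESeq2 (adjusted p = 0.103), and under a filter of at least 1 CPM on average (-0.10, 0.0522). It also shares 13.6% of its exon bases with BC029722 on the other strand, at 21.2 and 19.3 CPM, and strandedness of the counts is not given in the sources used here.

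These opposite moves changed which MMP was most abundant per length. With PBS, Mmp15 led at 59.8 ± 2.4 TPM (SD, n = 3), followed by Mmp14 at 35.2 ± 0.73 and Mmp25 at 34.0 ± 0.22 TPM, which were close to each other but did not overlap. With ONCM, Mmp25 led at 61.6 ± 1.5 TPM, followed by Mmp14 at 48.0 ± 1.7 and Mmp15 at 35.1 ± 1.8 TPM, with no overlap between neighbours in that order. The share of summed MMP transcript level held by Mmp15 was 28.6% with PBS and 14.3% with ONCM, and that of Mmp25 was 16.3% and 25.1%.

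Of the 9 other MMPs that were tested, 5 rose, 4 did not pass and none fell. Mmp12 (chromosome 9, 7344397 to 7360461), the elastase of macrophages, was low but clearly separated, at 1.10, 1.04 and 1.07 CPM with PBS and 3.38, 3.31 and 3.46 CPM with ONCM. It rose 3.16-fold (log2 fold change 1.66, SE 0.14, edgeR adjusted p = 1.34e-08). Mmp3, a stromelysin with broad matrix substrates, rose 1.55-fold from 6.02 ± 0.162 to 9.32 ± 0.24 CPM, and Mmp19, a secreted MMP of stromal cells, rose 1.37-fold from 9.97 ± 0.705 to 13.7 ± 0.519 CPM (SD, n = 3 each). Mmp19 shares 22.3% of its exon bases with Tmem198b on the other strand, which stood at 5.52 and 5.32 CPM. Mmp13, the main rodent collagenase, had 7.96, 7.31 and 7.84 CPM with PBS and 9.33, 10.1 and 8.40 CPM with ONCM. That call (log2 fold change 0.27, edgeR adjusted p = 0.0131) was lost without PBS replicate 2 (0.23, adjusted p = 0.0677) or ONCM replicate 2 (0.20, 0.0900), with DESeq2 (0.0570) and on log2(TPM + 1) (0.18, 0.0916) and log2(TPM + 0.1) (0.20, 0.0923).

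Mmp9, the other gelatinase and a gene often followed after nerve injury, averaged 1.46 ± 0.245 CPM in PBS and 1.475 ± 0.238 CPM in ONCM cultures (log2 fold change 0.02, SE 0.19, edgeR adjusted p = 0.935). Mmp11, Mmp23 and Mmp28 had log2 fold changes of -0.04, -0.29 and 0.22 and did not pass either. Of the 8 MMP genes left out by the filter, Mmp1a, Mmp1b, Mmp7 and Mmp20 had no count in any library, and Mmp8, Mmp21 and Mmp27 had at most 11. Mmp10, a second stromelysin, had 6, 6 and 7 counts with PBS and 31, 8 and 30 with ONCM. The groups did not overlap, although 1 ONCM library lay near the PBS level. With no filter, Mmp10 had a log2 fold change of 1.92 (edgeR adjusted p = 0.00628).

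Macrophage markers moved in the same libraries. All 12 listed markers rose, and their summed level was 46.1 to 49.1 CPM with PBS and 131 to 136 CPM with ONCM, 2.79 times as high on average. The 8 neutrophil markers were low but also higher in sum with ONCM, 3.63 to 3.83 CPM against 1.58 to 2.29 CPM with PBS, 1.89 times on average. That sum rose mainly through Ly6g, at 6, 7 and 11 counts with PBS and 106, 115 and 98 with ONCM. Of the 5 neutrophil markers that were tested, Ly6g and Cxcr2 (2.92-fold) rose and 3 did not pass. Among the tested markers 2 were lower in every ONCM library than in any PBS library. S100a8 was such a marker, at 33, 27 and 27 counts with PBS and 14, 16 and 20 with ONCM. Mpo and Elane were at 0 in all libraries. Summed over 10 fibroblast markers, of which 6 rose and none fell, levels were 330.1 to 336.6 CPM with PBS and 471 to 491.6 CPM with ONCM. The part of macrophages, neutrophils and fibroblasts in the rises of Mmp12, Mmp25, Mmp2, Mmp3, Mmp14 and Mmp19 was not tested.

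**Figure D2:**
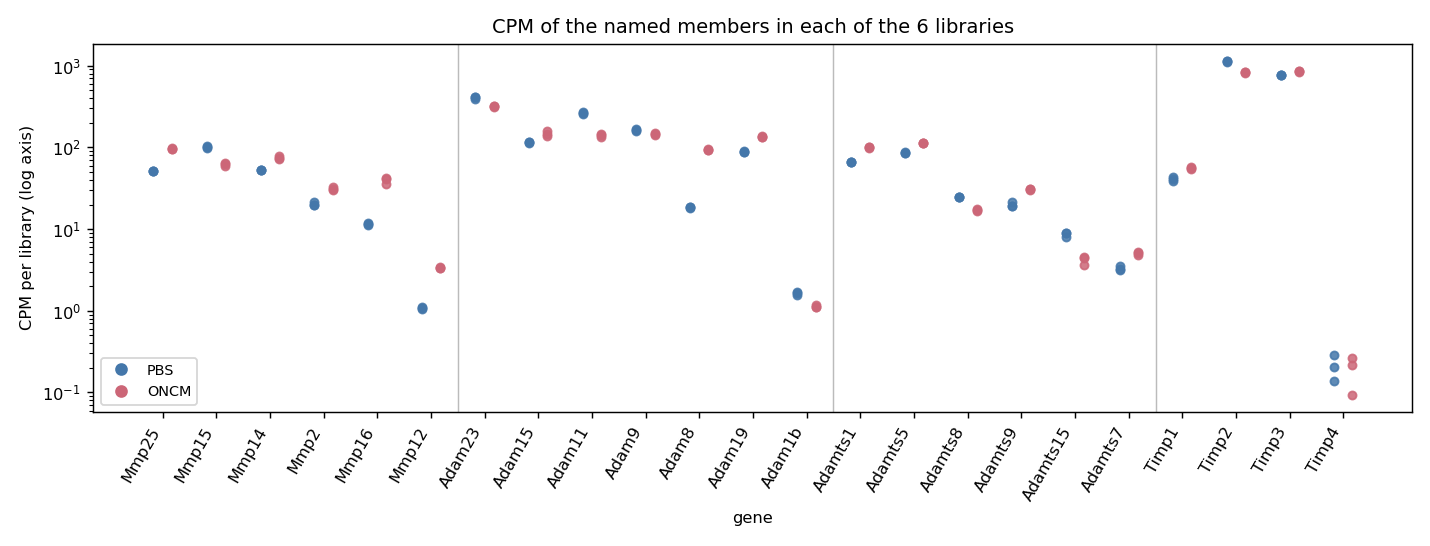
CPM in each library (log y axis) for 23 members, blue for the 3 PBS and red for the 3 ONCM libraries, with vertical lines between the families. Shown are all TIMPs and the members of the other families chosen by level or change. The groups separate for every gene shown except Timp4, and the Adam8 libraries lie at 18.0 to 18.7 CPM with PBS and 92.0 to 96.5 CPM with ONCM.

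The MMP genes of chromosome 9 form a cluster from 7272514 to 7699585 (mm10) with 10 members: Mmp13, Mmp12, Mmp1b, Mmp3, Mmp1a, Mmp10, Mmp8, Mmp27, Mmp20 and Mmp7. The filter on low counts kept 3 of them, and those 3 rose. Of the 7 left out, 4 had no count at all, and with no filter Mmp10 passed, as given above, while Mmp8 and Mmp27 did not (edgeR adjusted p = 0.965 and 0.304). Several promoters of this cluster are known for a binding site of AP-1, the Fos and Jun transcription factor. The site was searched as TGANTCA, which reads the same on both strands, in RefSeq windows from 250 bases before to 50 after the start of transcription (GRCm38.p6, the assembly of mm10). Windows were present for 49 of the 79 members. The letters occurred in 8 of the 10 cluster genes and in 5 of the 39 other members with a window, that is in 26.5% of the members, against 8.97% of all 27025 genes with a window. By direction, 4 of 14 raised members, 1 of 10 lowered, 1 of 11 not passing and 7 of 14 not tested held a match, so 7 of the 13 members with a match were left out by the filter. A match describes the letters and is no measure of binding. The 140 bases before the start are given for the 4 raised members with a match (Mmp13, Mmp12, Mmp3 and Adam19) and for Mmp10, in the direction of transcription, with the match in capitals. The first base of the match lies at position -35 in Mmp13, -44 in Mmp12, -46 in Mmp3, -63 in Mmp10 and -131 in Adam19, counted from the RefSeq start of that window. Mmp13, Mmp3 and Mmp10 have 1 window each, at the gene start. Mmp12 has 2 windows and Adam19 has 3, and the stretches printed for them precede alternative starts 2977 and 1482 bases inside the gene, while their windows at the gene start hold no match.
Mmp13 (chr9:7272374-7272513, plus strand): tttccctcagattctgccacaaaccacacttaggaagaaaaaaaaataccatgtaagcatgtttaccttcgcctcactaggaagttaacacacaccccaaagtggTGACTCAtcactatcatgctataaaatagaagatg
Mmp12 (chr9:7347234-7347373, plus strand): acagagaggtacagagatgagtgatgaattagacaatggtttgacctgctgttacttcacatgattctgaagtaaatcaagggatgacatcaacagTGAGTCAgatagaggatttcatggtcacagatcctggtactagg
Mmp3 (chr9:7445682-7445821, plus strand): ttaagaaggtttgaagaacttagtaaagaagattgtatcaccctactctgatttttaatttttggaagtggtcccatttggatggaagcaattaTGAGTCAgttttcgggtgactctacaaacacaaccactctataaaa
Mmp10 (chr9:7502202-7502341, plus strand): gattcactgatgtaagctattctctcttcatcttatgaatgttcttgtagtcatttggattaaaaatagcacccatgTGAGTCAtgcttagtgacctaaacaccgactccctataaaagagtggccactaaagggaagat
Adam19 (chr11:46055844-46055983, plus strand): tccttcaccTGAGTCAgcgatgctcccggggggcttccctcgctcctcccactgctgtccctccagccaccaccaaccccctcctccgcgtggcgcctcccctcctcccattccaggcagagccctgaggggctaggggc

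ADAM genes gave the largest rise among the tested members, that of Adam8, beside falls of the LGI-binding ADAMs. Of 20 tested, 6 rose, 7 fell and 7 did not pass, with a median log2 fold change of -0.22. The shares were 30.0% raised and 35.0% lowered, against 23.9% and 24.4% of all genes tested. Adam8 (chromosome 7, 139978932 to 139995207), a protease of leukocytes and injured neurons that sheds adhesion molecules, stood at 18.5, 18.0 and 18.7 CPM with PBS and 92.0, 92.3 and 96.5 CPM with ONCM. The spread within either group was under 3 CPM (SD 0.353 and 2.5). Its log2 fold change was 2.35 (SE 0.04, edgeR adjusted p = 4.65e-18). Per length, Adam8 went from 2.04% to 10.8% of the summed ADAM level, and its 71.9 ± 1.4 TPM with ONCM lay close to Adam11 at 68.4 ± 2.1 TPM. Adam8 rose in the libraries in which all 12 macrophage markers rose. Of the 5 tested neutrophil markers, Ly6g and Cxcr2 rose and 3 did not pass, and 2 were lower in every ONCM library than in any PBS library. The part of macrophages and neutrophils in the rise of Adam8 was not tested.

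The other catalytic ADAMs of somatic tissue changed less. Adam19, a shedder of neuregulin expressed in nerve (chromosome 11, 46054502 to 46147347), had 89.9, 87.5 and 87.1 CPM with PBS and 136, 139 and 134 CPM with ONCM, a rise of 0.63 on the log2 scale with an SE of 0.03 (edgeR adjusted p = 1.69e-11). Adam15, which binds integrins (chromosome 3, 89339640 to 89350028), was at 118, 115 and 112 CPM with PBS and 138, 147 and 158 CPM with ONCM, 1.28-fold higher, with a wider spread among the ONCM libraries. In the annotation, 20.6% of its exon bases are shared with an antisense gene. Adam9, a widely expressed shedder (chromosome 8, 24949611 to 25017040), went from 166, 165 and 158 CPM to 152, 147 and 142 CPM, a small fall of 0.15 on the log2 scale (SE 0.03, edgeR adjusted p = 0.00133). Adam12, a protease of muscle and mesenchyme, fell to 13.03 ± 1.18 CPM from 16.7 ± 1.11 CPM, and Adam33 (-0.42, adjusted p = 0.0992) did not pass. Adam28 had no count with PBS and at most 6 in an ONCM library.

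The general sheddases rose slightly. Adam10, the main enzyme that cuts Notch, N-cadherin and the amyloid precursor protein outside the membrane, was at 90.0, 90.8 and 89.8 CPM with PBS and 103.8, 103.7 and 100.02 CPM with ONCM (log2 fold change 0.19, SE 0.03). Adam17, which frees tumour necrosis factor and its receptors, went from 25.98, 25.2 and 25.6 CPM to 31.0, 30.6 and 29.4 CPM (0.25, SE 0.05). No ONCM library overlapped a PBS library for either gene, and edgeR gave adjusted p = 1.28e-04 and 2.51e-04. Adam17 shares 4.35% of its exon bases with Iah1, which rose from 13.8 to 17.1 CPM.

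Adam11, Adam22 and Adam23 lack the protease site and bind LGI proteins, secreted ligands that organise synapses and potassium channels of axons. All 3 fell. Adam11 (chromosome 11, 102761413 to 102780263) was at 265, 272 and 256 CPM with PBS and 135, 140.2 and 145 CPM with ONCM, a fall to 53% of the PBS level (log2 fold change -0.92, SE 0.03, edgeR adjusted p = 1.61e-13). Adam23, the ADAM with the highest mean TPM in both groups (chromosome 1, 63445717 to 63596111), had 415, 419 and 396 CPM with PBS and 319, 322 and 313 CPM with ONCM (-0.37, SE 0.03). With ONCM its libraries overlapped those of Adam15 per length: Adam23 had 124.3, 126.4 and 119.7 TPM, and Adam15 had 109.9, 121.3 and 128.03 TPM. Adam22 fell to 83% (-0.27, SE 0.03), from 229, 231 and 224 CPM to 195, 192 and 181 CPM. Summed per length, these receptors went from 375.7 ± 12.4 to 251 ± 5.26 TPM, or 0.669 of the PBS level (exact two-sided permutation test, p = 0.1, the smallest that 3 against 3 libraries can give).

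Of the 4 LGI ligand genes, 3 fell as well and Lgi4 did not pass. Lgi3 went from 211, 220.3 and 206 CPM to 97.6, 97.2 and 99.5 CPM, a change of -1.11 on the log2 scale with an SE of 0.03 (edgeR adjusted p = 6.99e-15). Lgi1 and Lgi2 had -0.67 and -0.61 (SE 0.04 each). Lgi4, which Schwann cells release to bind ADAM22 on axons, averaged 34.3 ± 1.10 CPM in PBS and 35.2 ± 0.471 CPM in ONCM cultures (0.04, SE 0.04, edgeR adjusted p = 0.526). Of the 12 sensory neuron markers 8 fell and 2 rose, and their summed level with ONCM was 0.905 of that with PBS. The part of neuron content in the falls of Adam11, Adam22 and Adam23 was not tested.

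**Figure D3:**
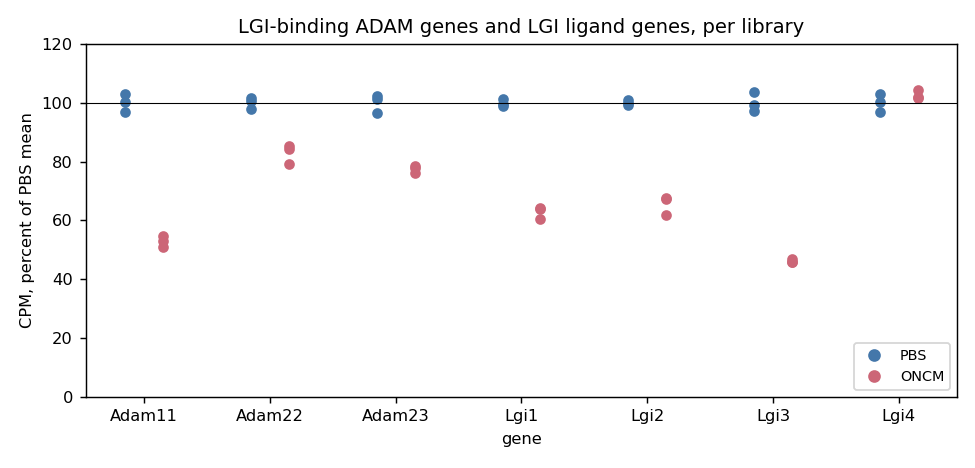
CPM of the LGI-binding ADAM genes and of the LGI genes in each library, as a percent of the mean of the PBS libraries (y axis from 0), blue for PBS and red for ONCM. The ONCM libraries lie below the PBS libraries for every gene shown except Lgi4, with Lgi3 and Adam11 lowest.

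The remaining 21 ADAMs are known chiefly from sperm, testis and epididymis, where they act in gamete maturation. Of these, 6 had no count (Adam6a, Adam6b, Adam26a, Adam26b, Adam29 and Adam34), a further 6 were counted too little to test (Adam2, Adam3, Adam7, Adam20, Adam30 and Adam39), and the other 9 were weak. Adam18 had 16, 12 and 9 counts with PBS and 49, 28 and 28 with ONCM and rose (log2 fold change 1.58, SE 0.37, edgeR adjusted p = 0.00158). The filter asks for about 10 counts in at least 3 libraries, so the PBS libraries alone would not have kept Adam18. Adam1b, at 1.65, 1.72 and 1.54 CPM with PBS and 1.12, 1.10 and 1.16 CPM with ONCM, fell (-0.54, SE 0.17, adjusted p = 0.0121), a call lost with DESeq2 (adjusted p = 0.0938). Adam1a also fell (-0.38), but 63.7% of its exon bases are shared with Gm42878 and 24% with Mapkapk5 on the same strand, so its own level is uncertain. Adam4, Adam5, Adam21, Adam24, Adam25 and Adam32 did not pass, with log2 fold changes from -0.67 to -0.02. The sum of 8 germ cell markers was 2.74 to 3.22 CPM with PBS and 2.59 to 3.12 CPM with ONCM, and Tnp1, Tnp2 and Acrv1 were at 0. Of the 33 ADAM genes, 13 lie on chromosome 8, including 12 of those 21 and Adam9.

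All 19 ADAMTS genes passed the filter: 5 rose, 6 fell and 8 did not pass, with a median log2 fold change of -0.16. That is 26.3% raised and 31.6% lowered, not far from the 23.9% and 24.4% of all genes tested. The proteoglycan-cleaving members, known for cutting aggrecan, versican, brevican and neurocan, all changed and split 4 against 3. Adamts1 (chromosome 16, 85793827 to 85803113), the most abundant per length, was at 66.3, 66.0 and 66.5 CPM with PBS and 102, 100.1 and 99.2 CPM with ONCM (log2 fold change 0.60, SE 0.03, edgeR adjusted p = 3.78e-11). Its neighbour Adamts5 (chromosome 16, 85858157 to 85901125), a major aggrecanase, went from 88.2, 84.9 and 84.98 CPM to 113 CPM in ONCM replicates 1 and 2 and 112 CPM in replicate 3 (0.39, SE 0.03). Adamts9, which cuts versican (chromosome 6, 92772699 to 92944450), had 21.5, 19.3 and 18.9 CPM with PBS and 31.0, 31.2 and 29.8 CPM with ONCM (0.62, SE 0.06). These genes were each higher in every ONCM library, as was Adamts4, another aggrecanase, at 11.9 ± 0.367 and 15.7 ± 0.349 CPM (0.40, SE 0.06).

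Adamts15, Adamts8 and Adamts20 fell. Adamts15 (chromosome 9, 30899155 to 30922452), a versican- and aggrecan-cutting enzyme, had the deepest fall of any member that passed, from 8.92, 9.08 and 7.98 CPM to 3.61, 4.53 and 4.48 CPM, or 48.6% of the PBS level (log2 fold change -1.04, SE 0.10, edgeR adjusted p = 7.95e-08). Adamts8, which lies beside it on chromosome 9 (30942562 to 30963838) and is known for restraining vessel growth, went from 24.9, 24.4 and 24.9 CPM to 16.99, 17.4 and 16.7 CPM (-0.54, SE 0.05). Adamts20 fell by 0.30 on the log2 scale, from 12.3 ± 0.0392 CPM to 81.1% of the PBS level. Thus the neighbours on chromosome 16 were both higher with ONCM and those on chromosome 9 both lower. As a sum per length, the proteoglycan-cleaving members went from 93.8 ± 1.95 to 113 ± 2.40 TPM, 1.20 times the PBS level (exact two-sided permutation test, p = 0.1, the smallest possible).

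Among the other ADAMTSs, Adamts7, which binds cartilage oligomeric matrix protein (chromosome 9, 90162904 to 90200102), rose from 3.56, 3.13 and 3.22 CPM to 5.24, 5.16 and 4.85 CPM (0.62, SE 0.11, edgeR adjusted p = 7.64e-05), while Adamts12 with a related function (-0.31, adjusted p = 0.117) did not pass. Of the procollagen N-proteinases, which trim new fibrillar collagen, Adamts3 fell to 70.9% of the PBS level, and Adamts2 and Adamts14 did not pass (-0.03 and 0.30). Adamts17 and Adamts10, both linked to fibrillin microfibrils, fell by 0.52 and 0.46. The Adamts10 call (edgeR adjusted p = 0.0156) was lost without PBS replicate 1 (-0.39, adjusted p = 0.0748), without ONCM replicate 1 (-0.34, 0.0839) and with DESeq2 (0.0886). Adamts6, Adamts16, Adamts18, Adamts19 and the von Willebrand factor protease Adamts13 were at most 1.21 CPM on average in either group and did not pass. Adamts19 had the most negative estimate of them, -1.22 (SE 0.59, edgeR adjusted p = 0.0969), from 15, 16 and 18 counts with PBS and 0, 12 and 8 with ONCM.

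TIMP transcripts outweighed those of the proteases per length. Timp2 (chromosome 11, 118301061 to 118355411), an inhibitor that also helps MMP14 activate MMP2, was the most abundant member in both groups at 794 ± 21 TPM with PBS and 554 ± 9.8 TPM with ONCM. In CPM it was at 1140.0, 1152 and 1107 with PBS and 806, 829 and 841 with ONCM, so that no library overlapped. Timp2 fell to 72.8% of the PBS level (log2 fold change -0.46, SE 0.03, edgeR adjusted p = 9.61e-11). Timp1 (chromosome X, 20870166 to 20874737), the TIMP induced by cytokines and injury, went from 41.0, 39.3 and 43.7 CPM to 56.2, 55.0 and 57.0 CPM and rose 1.36-fold (0.44, SE 0.04, edgeR adjusted p = 1.07e-07). Timp1 lies on the X chromosome, and Xist differed between the groups as given above.

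Timp3 (chromosome 10, 86300412 to 86349505), which binds the matrix and also inhibits ADAM10 and ADAM17, had 772, 771 and 781 CPM with PBS and 851, 863 and 832 CPM with ONCM. The rise was small (0.13, SE 0.03, edgeR adjusted p = 3.33e-04) and the call was lost on log2(TPM + 1) (0.07, adjusted p = 0.0689) and log2(TPM + 0.1) (0.07, 0.0680). Timp4 (chromosome 6, 115244444 to 115252205) was near the floor, at 0.139, 0.286 and 0.208 CPM with PBS and 0.093, 0.267 and 0.215 CPM with ONCM, and did not pass (edgeR adjusted p = 0.874). Timp1, Timp3 and Timp4 lie on the opposite strand inside the synapsin genes Syn1, Syn3 and Syn2. Timp3 shares 21.3% of its exon bases with Syn3, whose own level was 12.4 and 11.4 CPM, and Timp1 shares none with Syn1. Of the synapsin hosts, Syn1 had a log2 fold change of -0.02 (edgeR adjusted p = 0.595), Syn3 of -0.12 (0.225), and Syn2 fell by 0.41.

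Summed per length, the inhibitors were lower and the matrix proteases higher in every ONCM library. TIMP genes summed to 1345, 1338 and 1315 TPM with PBS and 1142, 1168 and 1137 TPM with ONCM, and the sums for MMP genes were 213, 207 and 206 TPM against 243, 249.8 and 244.5 TPM. ADAMTS genes summed to 106.9 ± 2.38 and 124.5 ± 2.52 TPM, and ADAM genes to 708 ± 20.2 and 668 ± 9.49 TPM. No family's libraries overlapped between the groups, and each gave p = 0.1 by an exact two-sided permutation test (0.1 also adjusted over the 4 families), the smallest p that 3 against 3 libraries allow. These sums rest on their leading genes: without Timp2 the TIMP ratio of ONCM to PBS was 1.10 instead of 0.862, and without Adam23 the ADAM ratio was 1.01 instead of 0.944 (exact p = 0.8). The MMP ratio was 1.05 instead of 1.18 without Mmp25. Leaving out Adamts1 gave an ADAMTS ratio of 1.03 instead of 1.17 (exact p = 0.2). The groups then overlapped, with PBS replicate 1 at 74.77 TPM and ONCM replicate 3 at 72.92 TPM. The summed proteases over the summed inhibitors gave a ratio of 0.776, 0.770 and 0.757 for PBS, against 0.903, 0.903 and 0.905 for ONCM (exact two-sided permutation test, p = 0.1), with the ADAMs that lack a protease site included. The summed proteases alone, with these ADAMs again included, were at 1023 ± 25.1 TPM with PBS and at 1038 ± 14.3 TPM with ONCM (exact p = 0.5). With the ADAMs that lack a protease site counted, the direction of the ratio rested on Timp2. Without Timp2 the ratio was 1.93, 1.94 and 1.83 for PBS, against 1.72, 1.74 and 1.77 for ONCM (exact p = 0.1), a calculation added after the values were seen. The ADAMs that lack a protease site summed to 375.7 TPM with PBS and 251 TPM with ONCM. The MMP and ADAMTS sums, given above, were higher in every ONCM library than in any PBS library. So were Adam10 with Adam17, at 64.3 TPM with PBS and 70.8 TPM with ONCM. The other catalytic ADAMs of somatic tissue, Adam8 included, also were, at 256.5 and 336.9 TPM. Only the sperm and testis ADAMs were lower, at 11.2 and 9.10 TPM. Apart from the ADAMs that lack a protease site, the protease sum was thus higher with ONCM. Its ratio to the inhibitors was not calculated.

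**Figure D4:**
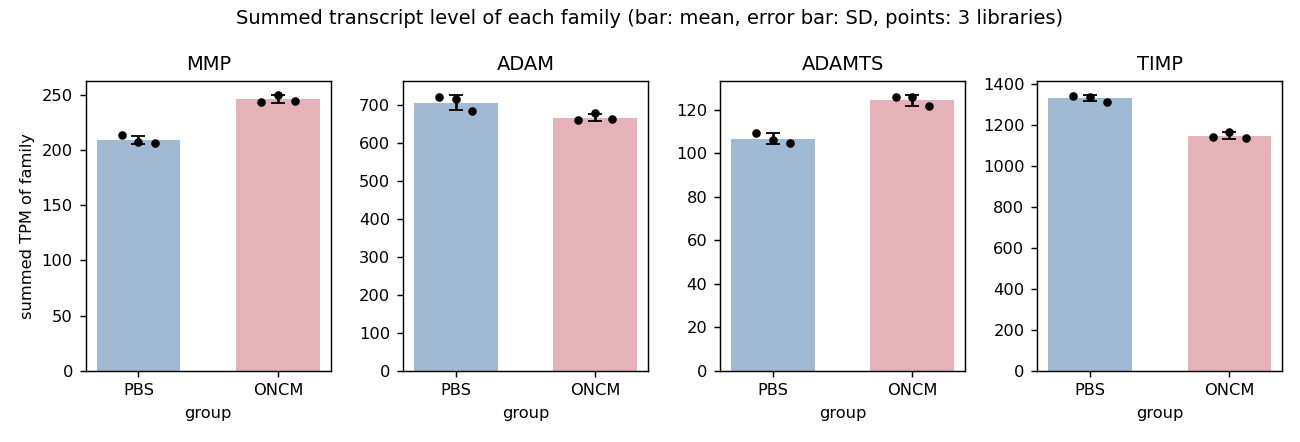
Summed TPM of the members of each family (y axis, from 0, with its own scale per panel) in the PBS and ONCM groups, as the mean (bar), SD (error bar) and the 3 libraries (points). MMP and ADAMTS sums are higher with ONCM (245.8 and 124.5 TPM), and ADAM and TIMP sums are lower.

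Genes that work with these families also changed in both directions. Of 67 tested genes in 8 lists of partners, regulators and substrates, 28 rose, 19 fell and the other 20 missed the threshold, so that 70.1% changed against 48.3% of all genes tested. By direction, 41.8% rose and 28.4% fell, against 23.9% and 24.4% of all genes tested. Activators went upward, with 5 raised and none lowered of 8: Plau, the urokinase that starts plasmin-dependent MMP activation, rose from 15.4 ± 0.32 to 38.3 ± 0.742 CPM, its receptor gene Plaur had a log2 fold change of 0.40, and the proprotein convertases Furin and Pcsk7, which remove propeptides of membrane-type MMPs and ADAMs, had 0.28 and 0.24. The list that joins other inhibitors, clearance genes and testicans had 2 raised and 4 lowered of 7. Spock1, Spock2 and Spock3, the testicans, proteoglycans that bear on membrane-type MMP activity, fell by 0.68, 0.33 and 0.85, and A2m, a protease trap, by 0.40. Reck, the membrane-anchored MMP inhibitor, did not pass (-0.16, edgeR adjusted p = 0.269).

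Partners of ADAM10 and ADAM17 gave 3 raised, 2 lowered and 3 not passing of 8. Those shares, 37.5% raised and 25.0% lowered, stand beside 23.9% and 24.4% of all genes tested. Rhbdf2, the iRhom that carries ADAM17 to the surface, rose from 9.67 ± 0.699 to 13.8 ± 1.51 CPM, and its paralogue Rhbdf1 went from 47.8 ± 0.543 to 41.8 ± 1.90 CPM, a fall of 0.19 on the log2 scale. Among the tetraspanins that steer ADAM10, Tspan17 rose by 0.66 and Tspan5 fell by 0.17. Shed membrane proteins were mostly raised, 12 of 20 with 2 lowered. The tumour necrosis factor receptor Tnfrsf1b (1.247), the chemokine Cxcl16 (1.34) and the adhesion receptor Cd44 (0.44) rose, and Nrg1, the axonal signal for Schwann cells, fell by 0.41. Lectican substrates and their link proteins were mixed, with 2 raised and 3 lowered of 7: versican (Vcan) rose by 0.47, brevican (Bcan) fell by 0.44, and the link proteins Hapln1 and Hapln4 fell by 1.07 and 0.88.

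Of 7 astacin metalloproteases and enhancers, 3 rose and 2 fell (42.9% and 28.6%, against 23.9% and 24.4% of all genes tested). Bmp1, the procollagen C-proteinase, rose from 15.9 ± 0.516 to 32.6 ± 2.21 CPM and its enhancer Pcolce by 0.73, while Tll1, a Bmp1 relative, fell by 0.54 and Pcolce2 by 0.18. ADAMTS-like and related secreted proteins gave 1 raised and 3 lowered of 6, with Papln and Adamtsl3 lower by 0.68 and 0.62, Adamtsl4 by 0.24, and Adamtsl1 higher by 0.42. The mural cell markers, 3 lowered and 1 raised of 7 tested, summed to 0.745 of the PBS level with ONCM, and the 10 endothelial markers to 1.15 times that level. Their part in the changes of matrix genes was not tested.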

How the data were processed

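The authors deposited 1 gene table with raw read counts, FPKM values and TPM values per gene for 6 libraries (per the file headers). The genome build is mm10 per the submitters' processing notes, while for the aligner, counter, annotation release and strandedness the sources used here give nothing. The deposited counts were tested, the deposited TPM values served for levels between genes and as an alternative scale, and the FPKM values were not used. Columns were matched to samples by the codes shared with the labels. Counts were fitted over the whole table in R 4.3.3 with edgeR 4.0.16 (filterByExpr at its defaults, TMM, robust quasi-likelihood F-test, no covariate, Benjamini-Hochberg over 20354 genes, adjusted p under 0.05). SE is the log2 fold change divided by the square root of F, and CPM values are TMM-scaled. DESeq2 1.42.0, limma 3.58.1 on log2(TPM + 1) or log2(TPM + 0.1), other filters and scalings, and leaving out each library were alternatives. Overlaps came from GENCODE M21, found for 78 members, and positions and promoters from RefSeq (GRCm38.p6). Library totals were 53770820 to 64477014 counts.

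Per-library values are given for all TIMPs and, in each other family, for the 4 members highest in TPM and the 4 with the largest change among members that passed with at least 1 CPM. Adam10, Adam17, Adam22, Mmp10, Mmp13, Mmp24, Adam18 and Adamts19, the genes overlapping a member and the synapsin hosts were added after their values were seen. Of each related list, up to 4 genes with the smallest p are named, with Reck, Rhbdf2 and the LGI genes. The members, roles and related lists were chosen with earlier results of these data known. No 2 libraries of a group agreed within sampling noise (chi-square per degree of freedom 2.78 to 7.78), so none was counted as a repeat deposit of another.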

Additional observations from a re-analysis of the deposited data

How the results depend on the processing

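Of the 38 members that passed, 33 stayed past the threshold in the same direction under each of the 14 alternatives in which they were tested, 5 lost the call in at least 1 (Mmp13, Mmp24, Adam1b, Adamts10 and Timp3) and 0 changed sign. The count of raised Timp genes, 2, was 1 without chromosomes X, Y and MT, where Timp1 is left out, and 1 on log2(TPM + 1) and on log2(TPM + 0.1), where Timp3 was lost. Every other count by family stayed within 1.5 times. Leaving out 1 library at a time gave 8752 to 9537 changed genes, 21 to 24 raised and 15 to 19 lowered members. Without the most abundant member the summed ratios of ONCM to PBS were 1.05 for Mmp, 1.01 for Adam, 1.03 for Adamts and 1.10 for Timp. The ratio of summed proteases to summed inhibitors, 1.18 times as high with ONCM, was 0.919 times as high without Timp2, an alternative chosen after seeing the data. Both values count the ADAMs that lack a protease site among the proteases. Some genes that did not pass changed sign when 1 library was left out: Adam32 ranged from -0.116 to 0.125 (reversed without PBS replicate 1 or ONCM replicate 1), Adam4 ranged from -0.291 to 0.195 (reversed without PBS replicate 1 or PBS replicate 3 or ONCM replicate 3), Adamts13 ranged from -0.251 to 0.00234 (reversed without PBS replicate 3), Adamts2 ranged from -0.13 to 0.0394 (reversed without PBS replicate 1 or ONCM replicate 2), Mmp11 ranged from -0.16 to 0.227 (reversed without PBS replicate 1 or ONCM replicate 3), Mmp9 ranged from -0.121 to 0.144 (reversed without PBS replicate 1 or ONCM replicate 2 or ONCM replicate 3), Timp4 ranged from -0.431 to 0.204 (reversed without PBS replicate 2 or ONCM replicate 1). On the TPM scales Mmp9 had -0.0433 with a pseudocount of 1 and -0.0726 with 0.1. The cause was not tested.

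The labels do not say what a replicate number marks. Deviations of same-numbered libraries correlated at 0.02, -0.009 and 0.023, so no strong shared deviation was seen. Such values cannot tell whether a number marks a shared preparation. With the number as a replicate block, 21 members rose and 17 fell, and 9597 genes changed against 9829 without it. The filter left out 21 members: 10 had no count, and the other 11, with at most 31 counts in a library, were tested with no filter, where Mmp10 passed.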
